A study of Mus musculus with 12 samples.

Results

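A set of 9 genes that write, copy, erase or remove DNA methylation were followed through the reprogramming of mouse embryonic fibroblasts to induced pluripotent stem cells, namely Dnmt1, Dnmt3a, Dnmt3b, Dnmt3l, Uhrf1, Tet1, Tet2, Tet3 and Tdg. They were chosen by name, and all 9 were found by symbol among the 37583 genes of the count tables. The 12 libraries were poly-A RNA-seq of 6 populations with 2 replicates each, all of the strain 129SV/Jae/C57BL6J. The starting cells were fibroblasts grown in MEF media (MEF), and the end point was iPSC grown in ES media. The 4 populations between them were sorted by flow cytometry during reprogramming in ES media with dox and a supplement written as AA. On day 3, SSEA1+ cells were taken as CD73- Sca1+ (labelled d3 Ineff) or CD73+ Sca1- (d3 Eff). On day 6, SSEA1+ cells were taken as EpCAM- Sca1+ (d6 Ineff) or EpCAM+ Sca1- (d6 Eff). The labels name neither the reprogramming factors, nor the animals, nor whether the 2 replicates of a group were separate cultures, so the spread that p-values here rest on is that between the samples at hand, which may be technical. The gates of day 3 and day 6 used different proteins, so differences between the days are also differences between gates, and the 2 cannot be told apart.

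DNA methylation in mammals sits mainly on cytosines of CpG pairs. Dnmt3a and Dnmt3b set it on unmethylated DNA, and Dnmt3l, which has no catalytic activity of its own, binds and stimulates them in germ cells and pluripotent cells. After replication the new strand lacks the mark. Uhrf1 recognises such hemimethylated CpG pairs and brings in Dnmt1, which copies the mark. The TET enzymes Tet1, Tet2 and Tet3 oxidise methylcytosine step by step, and Tdg, a DNA glycosylase, cuts out the later oxidation products for base excision repair. In fibroblast reprogramming, methylation has to be lost at pluripotency genes and rebuilt elsewhere, and Tet1, Dnmt3b and Dnmt3l are known as genes of pluripotent cells.

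One library stood apart and bears on each comparison with MEF. MEF replicate 2 had 9284060 gene counts against 14911103 to 22763548 in the other 11 libraries, and 47.2% of its reads placed in 1 gene, in several or in none lay outside genes. That share was 24.1% in d6 Eff replicate 2 and 5.10% to 11.7% in the other 10 libraries. The 2 MEF libraries correlated at r = 0.943 across genes, against 0.968 to 0.982 for the other 5 replicate pairs. Genes with over 5 kb of exon were lower in MEF replicate 2 than in replicate 1 (median log2 difference -0.58 over 4671 genes), while genes under 2 kb were higher (0.69 over 1237 genes). Of the 9 members, 7 have over 5 kb of exon. Dnmt3b was 8.50-fold, Dnmt1 6.76-fold, Tet3 5.26-fold, Dnmt3a 3.93-fold and Tet2 3.74-fold higher in MEF replicate 1 than in replicate 2, whereas no member with counts in both libraries of another group differed there by more than 2.05-fold. The part of gene length, depth or reads outside genes in these differences was not tested. Counts of calls and many of the values against MEF are therefore given also without a MEF library, and comparisons among other populations are given also from a fit without both.

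The labels were checked against marker genes. The 10 pluripotency markers summed to 2.79 and 4.47 CPM in the MEF libraries, to 40.9 to 97.5 CPM on day 3, to 136 and 137 CPM in d6 Ineff, to 307 and 335 CPM in d6 Eff, and to 8804 and 9283 CPM in iPSC. Pou5f1 alone, at 34.3 to 83.0 CPM, made up most of each day 3 sum. Of the 10, 3 in d3 Ineff and 4 in d3 Eff exceeded 1 CPM in both libraries. CPM here are gene counts per 1000000 after TMM scaling of the library sizes. The genes of the sorted proteins followed the gates: Ly6a (Sca1) was at 520 CPM or more in the Ineff and at 84.1 CPM or less in the Eff libraries, Nt5e (CD73) at 41.5 and 32.9 CPM in d3 Eff against 2.54 and 4.12 CPM in d3 Ineff, and Epcam at 947 and 994 CPM in d6 Eff against 27.7 and 27.8 CPM in d6 Ineff. All 10 fibroblast markers exceeded 1 CPM in both MEF libraries, with sums of 43826 and 12126 CPM, and their sums in iPSC were 9.07 and 11.5 CPM. Of 6 leukocyte markers, Laptm5 alone made up most of the summed level in the sorted populations (198 to 484 CPM), while Ptprc, the defining pan-leukocyte gene, was at 0 in 7 of their 8 libraries and at 0.131 CPM in the other. Of 4 endothelial markers, Tek was at 70.8 to 154 CPM in the sorted populations, Pecam1 and Cdh5 were between 0 and 6.22 CPM, and Kdr was at 17.2 and 11.7 CPM in d6 Ineff and at 0.235 to 4.77 CPM in the other sorted libraries. In MEF, the 4 neural markers summed to 167 and 132 CPM, nearly all Map2 and Tubb3, and the 4 skeletal muscle markers to 105 and 77.2 CPM, nearly all Des. The 4 keratinocyte markers summed to at most 0.838 CPM in any library. The part of such cells in the results was not tested. In bulk libraries such as these, fewer cells of a type and less RNA per cell cannot be told apart.

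Most members differed between the starting cells and the end point. Calls rest on a p under 0.05, adjusted by Benjamini-Hochberg, from an edgeR quasi-likelihood fit of all 12 libraries and 16240 genes. In iPSC against MEF, 7 members rose and 1 fell, Tdg was not called, and 52.7% of all genes tested were called. Dnmt3l passed the filter on low counts only through iPSC, so its call there followed from passing. Against MEF, 3 members rose in d3 Ineff (30.0% of all genes called), 3 in d3 Eff (36.5%), 5 in d6 Ineff (30.8%) and 7 in d6 Eff (42.6%), and none fell. These 5 comparisons share the MEF libraries. Without MEF replicate 2 the members called were 8 in iPSC (50.7% of all genes), 3 in d3 Ineff (33.1%), 3 in d3 Eff (38.7%), 5 in d6 Ineff (31.6%) and 7 in d6 Eff (43.6%). Without MEF replicate 1, in which most members were higher, 7 were called in d3 Ineff (39.0% of all genes) and 7 in d3 Eff (42.5%), and in iPSC 8 rose and none fell (51.3%). Calls made without MEF replicate 1 (log2 0.86 to 3.36), and neither with all libraries nor without MEF replicate 2, were Dnmt1 in d6 Ineff, Dnmt3a on day 3 in both gates, Tet2 in d3 Ineff, d3 Eff and d6 Ineff, Tet3 in d3 Ineff, d3 Eff and d6 Eff, and Tdg in d3 Eff and iPSC. Without d6 Eff replicate 2, 4 were called in d6 Eff (28.9%). In fits of the 4 libraries compared alone, where fewer of all genes were called in each sorted population, 10 calls were lost (adjusted p from 0.0538 to 0.167): Dnmt1 in d3 Eff, d6 Eff and iPSC, Dnmt3a in d6 Ineff and d6 Eff, Tet2 in d6 Eff, Tet3 in d6 Ineff and iPSC, and Tdg in d3 Ineff and d6 Eff.

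Comparisons among the later populations gave fewer calls with the 12 libraries than without MEF. Between d3 Eff and d3 Ineff no member was called by the filtered edgeR fit (0.400% of all genes), 2 had an unadjusted p under 0.05, and DESeq2 called none (3.06%). Without both MEF libraries 1 member, Tet2, was called there (3.94% of all genes). Between d6 Eff and d6 Ineff 1 member, Uhrf1, was called (14.6%), DESeq2 called 5 (21.2%), and without both MEF libraries 8 were called (30.0%). Dnmt3l was among the 5 of DESeq2, with 8 counts in d6 Eff replicate 2 and 0 in the other day 6 libraries, and was not among the 8. From day 3 to day 6, Tet1 alone was called in the Ineff populations (4.42%) and in the Eff populations (9.11%). Without both MEF libraries these counts were 5 (16.7%) and 3 (18.6%). Between iPSC and d6 Eff, 3 members rose and 1 fell (29.6%), and 7 were called without both MEF libraries (44.2%). Dnmt3l is 1 of the 3, and its call there too followed from passing the filter through iPSC. Without MEF replicate 1 alone, 8 members were called on day 6 between the gates (27.1% of all genes), 5 over time in the Ineff populations (15.0%) and 7 between iPSC and d6 Eff (39.1%). Without MEF replicate 2 alone the same numbers of members were called, beside 26.6%, 14.7% and 38.7% of all genes. The shared biological coefficient of variation of the 12-library fit, MEF pair included, was 28.0%.

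**Figure D1:**
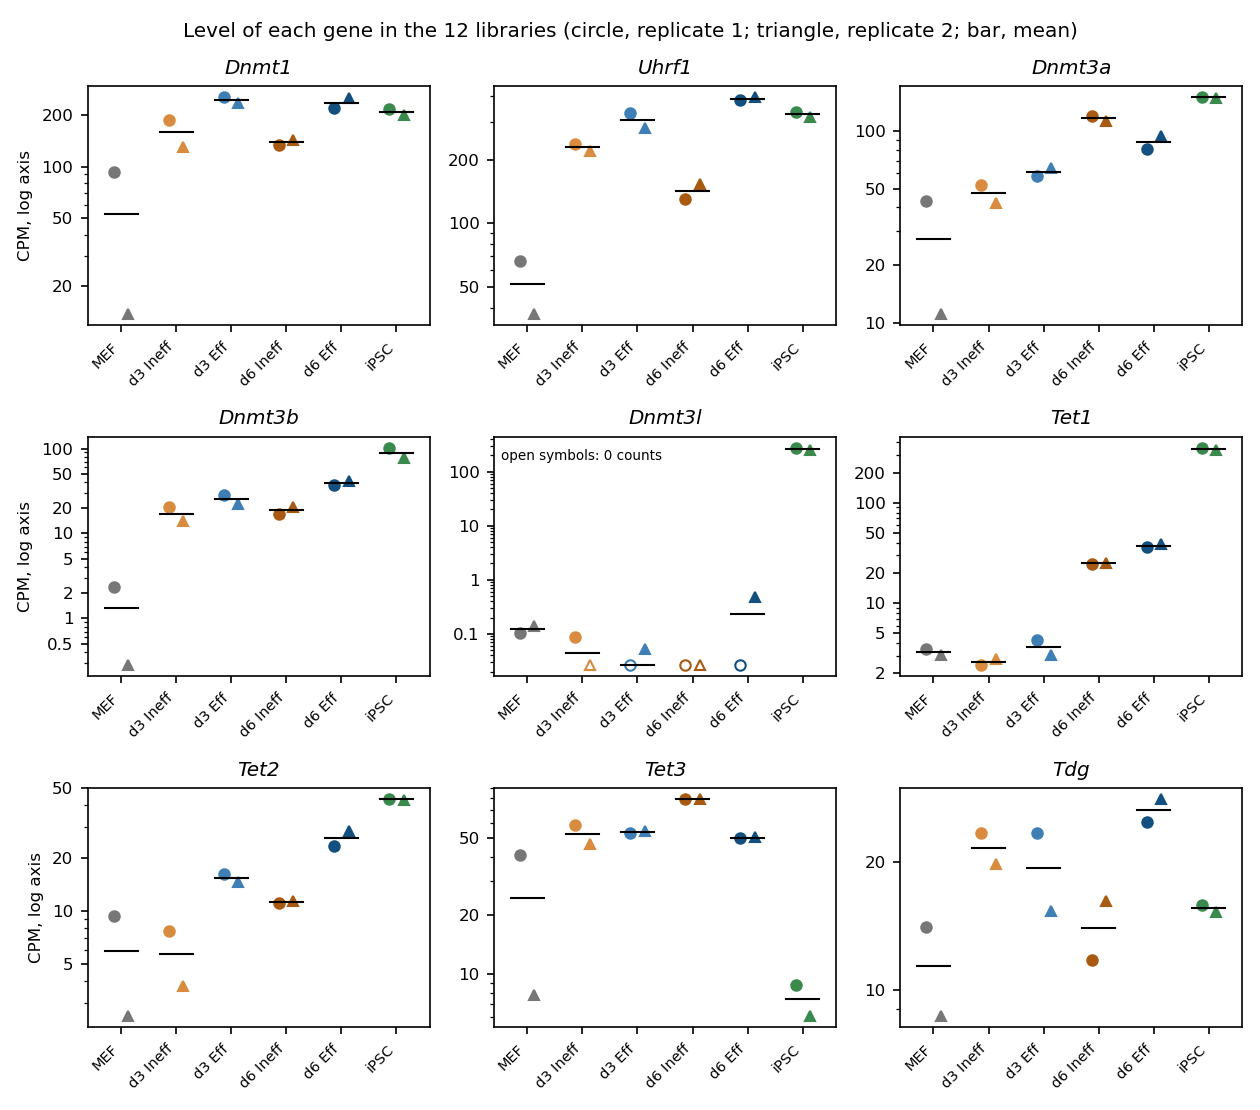
Level of each of the 9 genes in CPM on a log axis (y) in the 6 populations (x). Circles are replicate 1, triangles replicate 2, horizontal bars the mean of the 2 libraries, and open symbols in the Dnmt3l panel are libraries with 0 counts. The MEF points lie far apart for Dnmt1, Dnmt3a, Dnmt3b, Tet2 and Tet3. Tet1 is between 2.41 and 4.34 CPM up to day 3 and at 332 CPM or more in iPSC, while Tet3 is at 46.5 CPM or more in the sorted populations and at 8.81 CPM or less in iPSC.

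Dnmt1, the maintenance methyltransferase, was lower in both MEF libraries than in every other library. Its levels were 92.5 and 13.7 CPM in MEF, 188 and 131 CPM in d3 Ineff, 256 and 234 CPM in d3 Eff, 134 and 144 CPM in d6 Ineff, 219.8 and 253 CPM in d6 Eff, and 218 and 199.8 CPM in iPSC. At both days the 2 Eff libraries lay above the 2 Ineff libraries, and the iPSC libraries lay between the d6 populations. The log2 fold change over MEF was 2.18 ± 0.59 (SE) in d3 Eff (adjusted p = 0.0132), 2.13 ± 0.59 in d6 Eff (adjusted p = 0.0126) and 1.96 ± 0.58 in iPSC (adjusted p = 0.0155). In d3 Ineff it was 1.57 (adjusted p = 0.0628) and in d6 Ineff 1.37 (adjusted p = 0.0958), neither of which was called. Dnmt1 in d3 Ineff was called without MEF replicate 1 (log2 3.56, adjusted p = 4.74e-09), without MEF replicate 2 (0.72, adjusted p = 0.0117), by DESeq2 (adjusted p = 0.0197), with the replicate block (adjusted p = 0.0355) and with no filter. In d6 Ineff it was called without MEF replicate 1 (log2 3.36, adjusted p = 6.48e-09), by DESeq2 (adjusted p = 0.0387) and with no filter, and not without MEF replicate 2 (0.51, adjusted p = 0.0666). The iPSC value was 3.95 without MEF replicate 1 and 1.12 without MEF replicate 2. The d3 Eff value was 4.18 and 1.30 in the same fits and the d6 Eff value 4.12 and 1.25, all called. The call was lost without iPSC replicate 1 (adjusted p = 0.0504), and those of d3 Eff and d6 Eff were lost without d3 Eff replicate 1 (adjusted p = 0.0502) and without d6 Eff replicate 2 (adjusted p = 0.0505).

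Uhrf1, the reader that recruits Dnmt1, had the same 3 lowest populations, MEF, d6 Ineff and d3 Ineff. MEF libraries held 66.5 and 37.1 CPM, d3 Ineff 238 and 219 CPM, d3 Eff 333 and 282 CPM, d6 Ineff 129.7 and 154 CPM, d6 Eff 381 and 396 CPM, and iPSC 336 and 319.8 CPM. No 2 neighbouring populations in order of level overlapped except d3 Eff and iPSC. Uhrf1 was called above MEF in all 5 comparisons, with log2 fold changes from 1.45 ± 0.25 in d6 Ineff (adjusted p = 0.00103) to 2.90 ± 0.26 in d6 Eff (adjusted p = 6.32e-06). Each of these calls held under all 19 alternatives. It was also the only member called between d6 Eff and d6 Ineff, at 2.74-fold (log2 1.45 ± 0.24, adjusted p = 0.00271), a call that held under all 20 alternatives. Between d3 Eff and d3 Ineff the log2 difference was 0.43 ± 0.24 (adjusted p = 0.726). Per kb of exon, the scale on which genes can be set side by side, Uhrf1 was at 77.0 ± 2.68 CPM per kb in iPSC, above 95.7% of the genes tested. Dnmt1 was at 28.4 ± 1.78 CPM per kb there, above 87.6%.

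Across the 12 libraries the log2 CPM of Dnmt1 and Uhrf1 correlated at r = 0.91, a description over 6 populations that includes the unequal MEF pair. Their promoter windows are shown because both hold matches to motifs of E2F, the factor family that drives genes of DNA replication. RefSeq windows on GRCm38.p6 cover 250 bases before to 50 after each annotated start, and the 9 genes matched 16 such windows. Capitals mark the matches to TTTCCCGC, TTTGGCGC, TTCCCGCC or TTTCGCGC on either strand, of which TTTCCCGC and TTCCCGCC can overlap. The third Dnmt1 window is chr9:20952574-20952873 (minus strand), and the first and second Uhrf1 windows are chr17:56303087-56303386 and chr17:56304063-56304362 (plus strand).
Dnmt1 window 3: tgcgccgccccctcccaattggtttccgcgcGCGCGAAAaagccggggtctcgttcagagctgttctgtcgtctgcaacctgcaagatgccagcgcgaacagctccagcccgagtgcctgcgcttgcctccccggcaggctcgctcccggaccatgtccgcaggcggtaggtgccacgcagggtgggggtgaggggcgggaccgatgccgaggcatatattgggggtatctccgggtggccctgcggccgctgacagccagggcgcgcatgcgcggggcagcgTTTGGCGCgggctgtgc
Uhrf1 window 1: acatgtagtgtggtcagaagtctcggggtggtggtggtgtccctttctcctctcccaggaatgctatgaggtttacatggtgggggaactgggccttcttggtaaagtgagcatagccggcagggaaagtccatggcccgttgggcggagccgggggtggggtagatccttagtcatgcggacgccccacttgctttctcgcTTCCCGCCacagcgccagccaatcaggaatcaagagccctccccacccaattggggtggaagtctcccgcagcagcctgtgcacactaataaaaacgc
Uhrf1 window 2: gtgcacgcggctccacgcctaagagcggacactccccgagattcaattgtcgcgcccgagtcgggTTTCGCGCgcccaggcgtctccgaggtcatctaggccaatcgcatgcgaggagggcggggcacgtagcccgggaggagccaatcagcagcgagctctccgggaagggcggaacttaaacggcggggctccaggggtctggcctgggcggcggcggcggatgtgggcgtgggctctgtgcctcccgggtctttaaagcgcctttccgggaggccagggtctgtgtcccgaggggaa
At least 1 of the 4 motifs is present in 3.49% of all 32851 windows, and none of the windows of the other 7 members holds one. Among those 7, Dnmt3b correlated with Uhrf1 at r = 0.93 and with Dnmt1 at r = 0.91. TTTCGCGC, which both genes have, is in 0.323% of all windows. Dnmt1 window 3 and Uhrf1 window 2, which hold it, have 33 CpG pairs each, more than 91.4% of all windows. The share of this motif, itself with CpG pairs, among windows of like CpG content was not computed. A match is a description of the letters and not a measured binding site.

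Dnmt3a, a de novo methyltransferase, had the highest MEF level of the 3 DNMT3 genes, also per kb of exon. It was at 43.3 and 11.0 CPM in MEF, 52.4 and 42.0 CPM in d3 Ineff, 58.4 and 64.4 CPM in d3 Eff, 120.1 and 113 CPM in d6 Ineff, 80.5 and 94.1 CPM in d6 Eff, and 151 and 148 CPM in iPSC. On day 3 the Eff libraries were the higher ones, and on day 6 the Ineff libraries were. Dnmt3a rose above MEF in d6 Ineff (log2 2.07 ± 0.44, adjusted p = 0.00435), d6 Eff (1.65 ± 0.44, adjusted p = 0.0101) and iPSC (2.43 ± 0.45, adjusted p = 8.47e-04). The iPSC value was 3.77 without MEF replicate 1 and 1.73 without MEF replicate 2, the d6 Ineff value 3.41 and 1.35, and the d6 Eff value 3.00 and 0.91, all called. In turn the d6 Eff call was lost without d6 Eff replicate 2 (adjusted p = 0.0514). The difference between d6 Eff and d6 Ineff was not called with 12 libraries (log2 -0.41 ± 0.42, adjusted p = 0.574). It was called without both MEF libraries (log2 -0.44, adjusted p = 0.0344). The day 3 difference was not called with 12 libraries (adjusted p = 0.954) or in any alternative. The rise from d3 Ineff to d6 Ineff was not called in the main fit. It was called by DESeq2 (log2 1.33, adjusted p = 0.0278), and by edgeR with no filter (1.30, adjusted p = 4.37e-05) and without both MEF libraries (1.30, adjusted p = 2.73e-05). The rise from d3 Eff to d6 Eff was called without both MEF libraries (log2 0.52, adjusted p = 0.0214).

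Dnmt3b, the other de novo enzyme, was nearly absent from MEF and present in each sorted population. It was at 2.37 and 0.279 CPM in MEF, 20.3 and 14.0 CPM in d3 Ineff, 28.1 and 22.4 CPM in d3 Eff, 17.0 and 20.7 CPM in d6 Ineff, 37.1 and 41.2 CPM in d6 Eff, and 102 and 77.7 CPM in iPSC. All 10 later libraries were above both MEF libraries, and the iPSC libraries were above all others. The MEF values rest on 46 and 2 counts. Dnmt3b rose over MEF 10.7-fold in d3 Ineff (adjusted p = 3.99e-04), 15.8-fold in d3 Eff (adjusted p = 1.14e-04), 11.8-fold in d6 Ineff (adjusted p = 2.86e-04), 24.5-fold in d6 Eff (adjusted p = 3.14e-05) and 56.2-fold in iPSC (adjusted p = 4.91e-06). Without MEF replicate 2 the log2 fold change in iPSC was 5.18 in place of 5.81, and without MEF replicate 1, whose partner holds those 2 counts, it was 8.31. Without MEF replicate 1 the log2 values in the 4 sorted populations were 5.92 to 7.11 and without MEF replicate 2 they were 2.78 to 3.94, all called. The step from d6 Eff to iPSC was 2.30-fold (log2 1.20 ± 0.41, adjusted p = 0.0473). That call held in 9 of 20 alternatives, among them the fit without both MEF libraries (adjusted p = 1.72e-04), and was lost without iPSC replicate 1 (log2 0.99, adjusted p = 0.242). Dnmt3c, a rodent copy of Dnmt3b, had at most 2 counts in any library.

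The balance of the 2 enzymes, as shares of their summed CPM per kb of exon, turned between MEF and iPSC. Dnmt3a made up 84.8% and 92.4% in MEF, 44.2% and 47.9% in d3 Ineff, 39.0% and 46.9% in d3 Eff, 68.5% and 62.5% in d6 Ineff, 40.0% and 41.2% in d6 Eff, and 31.2% and 37.0% in iPSC, with Dnmt3b as the rest. Dnmt3a held the larger share in MEF and d6 Ineff, and Dnmt3b in the other 4 populations. No test was run on shares, since an exact permutation test of 2 libraries against 2 cannot go below p = 0.33. With the longest transcript in place of all exons as the length, the mean Dnmt3a share became 55.4% in d3 Ineff and 52.2% in d3 Eff, and that in d6 Eff 49.8%, so which enzyme leads in these 3 populations depends on the length used.

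Dnmt3l, the cofactor of the de novo enzymes, was abundant in iPSC and near or at 0 in the other 10 libraries. The 2 iPSC libraries held 6404 and 3849 counts (275 and 254 CPM). The other groups held 3 in MEF, 2 in d3 Ineff, 1 in d3 Eff, 0 in d6 Ineff and 8 in d6 Eff, over both libraries. Against the 3 counts that an empty group allows, iPSC was at least 3733-fold higher than d6 Ineff. The ratio to the pooled d6 Eff counts was 1316, with an exact (Clopper-Pearson) 95% counting interval of 667 to 3048. The ratio to MEF was 2358 (807 to 11438). Such intervals and floors cover counting error only. All 8 d6 Eff counts came from replicate 2, the library that also held 7 of the 9 counts of the pseudogene Dnmt3l-ps1. Exons of Dnmt3l and of Aire, on the opposite strand, share 67 bases, and Aire had 196 and 120 counts in iPSC and at most 1 elsewhere. Counting ignored strand, so reads in the shared bases cannot be told apart. Per kb of exon Dnmt3l reached 88.5 ± 5.12 CPM per kb in iPSC, above Dnmt3b (17.6 ± 3.37) and Dnmt3a (8.99 ± 0.0931).

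Tet1, an enzyme that oxidises methylcytosine, rose in 2 steps after day 3. It was at 3.51 and 3.07 CPM in MEF, 2.41 and 2.76 CPM in d3 Ineff, 4.34 and 3.07 CPM in d3 Eff, 24.7 and 25.1 CPM in d6 Ineff, 36.0 and 39.0 CPM in d6 Eff, and 352 and 332 CPM in iPSC. The 6 libraries of MEF and day 3 lay within 2.41 to 4.34 CPM. Both day 6 populations lay above all of them, and iPSC lay above day 6. The rise from day 3 to day 6 was 9.63-fold in the Ineff populations (log2 3.27 ± 0.22, adjusted p = 4.20e-05) and 10.1-fold in the Eff populations (log2 3.33 ± 0.21, adjusted p = 1.31e-05). The test of the difference between these 2 rises gave log2 0.07 ± 0.29 (adjusted p = 1.00). From d6 Eff to iPSC Tet1 rose 9.12-fold (log2 3.19 ± 0.20, adjusted p = 1.24e-06). These 3 calls held under all 20 alternatives. Between d6 Eff and d6 Ineff the log2 difference was 0.59 ± 0.19 (adjusted p = 0.0633), and without both MEF libraries it was called (log2 0.57, adjusted p = 0.00977). Tet1 was the member least affected by the unequal MEF pair, at 1.14-fold between its 2 libraries.

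Tet2, which lacks the CXXC domain that Tet1 and Tet3 can carry, was higher in the Eff than in the Ineff libraries on both days. It was at 9.40 and 2.51 CPM in MEF, 7.70 and 3.76 CPM in d3 Ineff, 16.2 and 14.6 CPM in d3 Eff, 11.1 and 11.3 CPM in d6 Ineff, 23.3 and 28.5 CPM in d6 Eff, and 43.4 and 42.8 CPM in iPSC. Both Eff populations lay above the Ineff population of their day without overlap. In the filtered edgeR fit of 12 libraries neither gap was called (day 3 log2 1.42 ± 0.47, adjusted p = 0.325, and day 6 log2 1.21 ± 0.46, adjusted p = 0.107). In the edgeR fit of the same libraries with no filter both were called (adjusted p = 0.00361 and 0.00441). Without both MEF libraries both were called, at log2 1.38 (adjusted p = 0.00849) and 1.18 (adjusted p = 0.00299). Tet2 rose over MEF 4.12-fold in d6 Eff (adjusted p = 0.00515) and 6.84-fold in iPSC (adjusted p = 6.16e-04). In iPSC the log2 fold change of 2.77 became 4.11 without MEF replicate 1 and 2.14 without MEF replicate 2, and in d6 Eff the value of 2.04 became 3.37 and 1.36, all called.

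Tet3, the TET enzyme known from oocytes and neurons, was low in iPSC, where the other 2 were highest. It was at 41.1 and 7.82 CPM in MEF, 58.1 and 46.5 CPM in d3 Ineff, 52.9 and 54.6 CPM in d3 Eff, 78.9 and 79.4 CPM in d6 Ineff, 49.8 and 50.5 CPM in d6 Eff, and 8.81 and 6.06 CPM in iPSC. The iPSC libraries were below all sorted populations, and d6 Ineff was above all others. From d6 Eff to iPSC Tet3 fell 6.70-fold (log2 -2.74 ± 0.54, adjusted p = 0.00294), a call that held under all 20 alternatives. Against MEF the fall in iPSC was called (log2 -1.74 ± 0.53, adjusted p = 0.0173), yet MEF replicate 2 lay between the 2 iPSC libraries. Without MEF replicate 1 the value was -0.04 (adjusted p = 0.926), without MEF replicate 2 it was -2.51 (adjusted p = 3.67e-08), and without iPSC replicate 2 it was -1.50 (adjusted p = 0.109). Tet3 rose over MEF in d6 Ineff (log2 1.66 ± 0.52, adjusted p = 0.0312). The value was 3.35 without MEF replicate 1 and 0.87 without MEF replicate 2, both called, and the call was lost without d6 Ineff replicate 1 (adjusted p = 0.0876) or replicate 2 (adjusted p = 0.0893). The d6 Eff level was below d6 Ineff by 0.66 ± 0.50 on the log2 scale (adjusted p = 0.436), and the call was made without both MEF libraries (log2 -0.68, adjusted p = 0.00741).

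**Figure D2:**
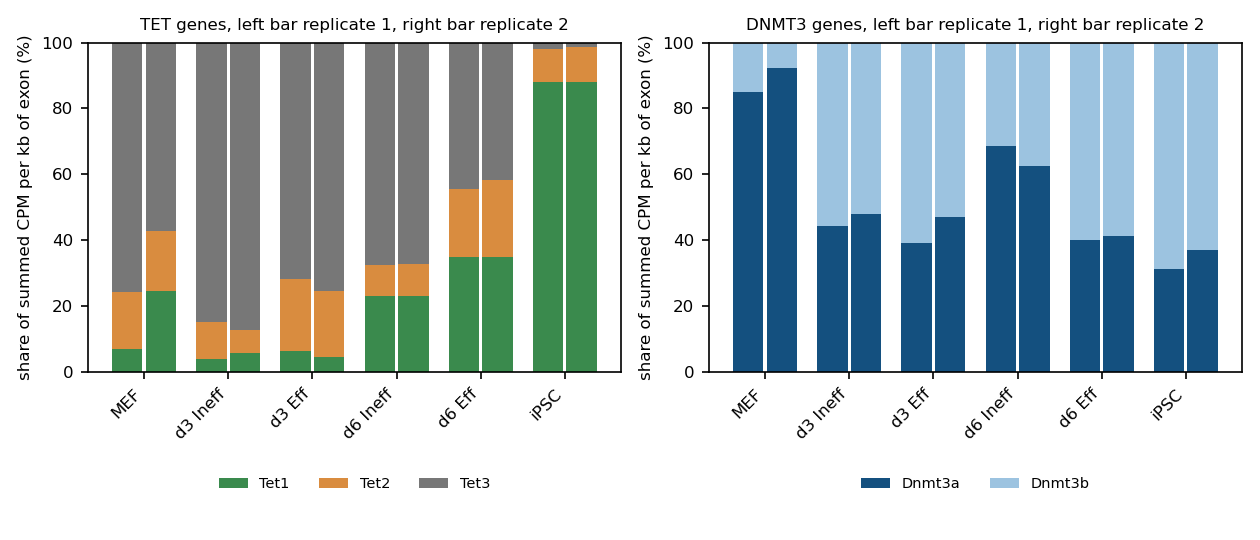
Share of the summed CPM per kb of exon (y, percent) taken by each TET gene (left panel) and by Dnmt3a and Dnmt3b (right panel) in each library, with replicate 1 as the left and replicate 2 as the right bar of each population (x). Tet3 fills 85.1% and 87.4% of the TET bar in d3 Ineff, and Tet1 fills 88.0% and 88.1% in iPSC.

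The TET family therefore exchanged its main member, as the bars of TET shares show. Per kb of exon, Tet3 made up 75.8% and 57.4% of the TET sum in MEF, 85.1% and 87.4% in d3 Ineff, 71.9% and 75.5% in d3 Eff, 67.7% and 67.4% in d6 Ineff, 44.6% and 41.8% in d6 Eff, and 2.04% and 1.49% in iPSC. Tet1 made up 7.00% and 24.4% in MEF, at most 6.36% on day 3, 22.9% and 23.0% in d6 Ineff, 34.8% and 34.9% in d6 Eff, and 88.0% and 88.1% in iPSC. Tet2 stayed between 6.99% and 23.4% in all libraries, with 19.9% to 23.4% in the Eff populations and 6.99% to 11.1% in the Ineff populations. With the longest transcript in place of all exons as the length, the mean Tet2 share was 28.1% in d6 Eff in place of 22.0% and 16.1% in iPSC in place of 10.2%, and Tet1 kept 81.6% in iPSC. The replicates of a population lay close together except in MEF. The summed level was 6.99 and 7.05 CPM per kb in d6 Ineff and 6.70 and 7.24 in d6 Eff, which overlapped, and 25.9 and 24.4 in iPSC.

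Tdg, the glycosylase that removes oxidised methylcytosine, had the narrowest range of group means of the 9 genes, 11.4 to 26.6 CPM. It was at 14.1 and 8.66 CPM in MEF, 23.5 and 19.8 CPM in d3 Ineff, 23.5 and 15.4 CPM in d3 Eff, 11.8 and 16.2 CPM in d6 Ineff, 24.9 and 28.3 CPM in d6 Eff, and 15.9 and 15.3 CPM in iPSC. The d6 Eff libraries were the highest, and most neighbouring populations overlapped. Tdg rose over MEF in d6 Eff (2.30-fold, log2 1.20 ± 0.31, adjusted p = 0.00859) and in d3 Ineff (log2 0.91 ± 0.31, adjusted p = 0.0448). The d6 Eff call was lost without d6 Eff replicate 2 (adjusted p = 0.0691). The d3 Ineff call held in 8 of 19 alternatives and was lost without MEF replicate 2 (log2 0.55, adjusted p = 0.202), without either d3 Ineff library and without any 1 library of d6 Ineff, d6 Eff or iPSC (adjusted p from 0.0599 to 0.236). Between d6 Eff and d6 Ineff the log2 difference was 0.93 ± 0.30 (adjusted p = 0.0656), and it was called without both MEF libraries (log2 0.90, adjusted p = 0.0105). Tdg has a similar copy, Gm9855, with 368 and 256 counts in iPSC against 370 and 232 for Tdg itself, and 18 to 176 counts in the other libraries. Reads of the pair may have been split. Added together, Tdg and Gm9855 came to 33.2 ± 0.615 CPM in d6 Eff and 31.9 ± 0.308 CPM in iPSC, where Tdg alone was at 26.6 ± 2.34 and 15.6 ± 0.435 CPM. The sum was 15.1 ± 5.54 CPM in MEF, 26.9 ± 3.37 in d3 Ineff, 26.1 ± 5.52 in d3 Eff and 17.4 ± 3.67 in d6 Ineff. Both MEF libraries, at 19.0 and 11.2 CPM, thus lay below both iPSC libraries, at 31.7 and 32.2 CPM. Differences in the sum were not tested. Exons of Tdg also share 367 bases with Glt8d2 on the opposite strand, which had at most 47 counts in a library.

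A change of the Eff and Ineff gap between the days was called for 2 members, only in fits that left out MEF libraries. On day 6 the libraries of d6 Eff and d6 Ineff did not overlap for 8 of 9 members, and 62.4% of all genes tested did not overlap there. Uhrf1, Dnmt3b, Tet2, Tdg, Dnmt1 and Tet1 were higher in d6 Eff, and Dnmt3a and Tet3 were higher in d6 Ineff. On day 3 the libraries did not overlap for 6 members (40.3% of all genes), all of them higher in d3 Eff, Dnmt3a included. The change of the gap from day 3 to day 6 was called for no member with 12 libraries (1.39% of all genes), 2 had an unadjusted p under 0.05, and DESeq2 called none (5.82%). The largest values with counts in all 4 populations were 1.08 ± 0.43 for Tdg (adjusted p = 0.312), 1.02 ± 0.34 for Uhrf1 (adjusted p = 0.211) and -0.80 ± 0.60 for Dnmt3a (adjusted p = 0.683) on the log2 scale. Without both MEF libraries the change was called for Uhrf1 (log2 1.04, adjusted p = 0.00278) and for Dnmt3a (log2 -0.78, adjusted p = 0.0303), among 8.47% of all genes. The log2 values themselves were nearly the same in both fits.

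**Figure D3:**
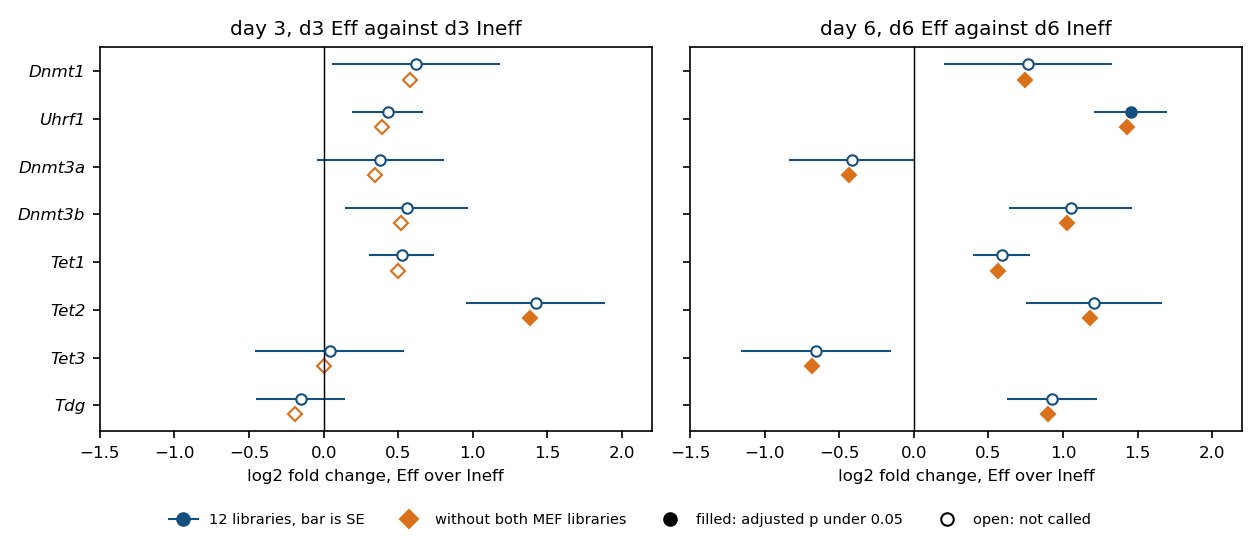
Log2 fold change of Eff over Ineff cells (x) for 8 members (y) on day 3 (left) and day 6 (right). Circles with SE bars are the fit of 12 libraries, diamonds the fit without both MEF libraries, and filled symbols have an adjusted p under 0.05; Dnmt3l is left out because of its few counts in these 8 libraries. On day 6 only Uhrf1 has a filled circle, and all 8 diamonds are filled.

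The promoter windows of Dnmt3l and Tet1, at a mean of 264 and 342 CPM in iPSC, differ in CpG content and are shown with each CpG in capitals. The first Dnmt3l window is chr10:78042037-78042336 (plus strand) and the Tet1 window chr10:62887275-62887574 (minus strand), both from RefSeq on GRCm38.p6.
Dnmt3l window 1: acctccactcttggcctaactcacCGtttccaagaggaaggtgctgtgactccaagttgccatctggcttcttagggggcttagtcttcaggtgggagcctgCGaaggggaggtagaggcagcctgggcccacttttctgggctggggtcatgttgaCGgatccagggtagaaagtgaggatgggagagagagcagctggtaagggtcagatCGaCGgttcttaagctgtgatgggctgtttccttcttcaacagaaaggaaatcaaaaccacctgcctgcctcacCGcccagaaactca
Tet1 window 1: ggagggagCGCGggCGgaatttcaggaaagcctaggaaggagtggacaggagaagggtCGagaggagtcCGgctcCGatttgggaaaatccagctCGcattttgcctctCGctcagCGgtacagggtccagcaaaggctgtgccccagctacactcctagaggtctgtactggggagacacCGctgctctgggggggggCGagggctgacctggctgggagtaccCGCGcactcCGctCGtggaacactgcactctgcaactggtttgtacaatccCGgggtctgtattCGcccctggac
The Dnmt3l window holds 6 CpG pairs and the other 2 windows of that gene hold 4 and 3, against a median of 7 over all windows. The Tet1 window holds 17. The CpG-richest windows of the other members hold 22 (Tet3) to 57 (Tet2), which is more than in 76.9% to 99.8% of all windows. No methylation was measured in these libraries. The octamer ATGCAAAT, a motif of Oct factors, was in none of the 16 member windows and in 1.74% of all windows on either strand. The E-box CACGTG was in 1 window each of Dnmt3a, Dnmt3l and Tdg and in 7.15% of all windows.

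Genes that work with the members were followed in 9 lists of 101 genes, of which 100 were tested. Over all genes tested, 52.7% were called in iPSC against MEF and 14.6% in d6 Eff against d6 Ineff. The list of maintenance partners rose with Dnmt1 and Uhrf1: 6 of 7 rose in iPSC against MEF and none fell, with a median log2 fold change of 2.05 beside 0.04 over all genes. Hells, a remodelling helicase needed for DNA methylation, rose from 44.4 ± 6.51 to 356 ± 9.20 CPM (adjusted p = 1.34e-06), and its partner Cdca7 from 28.2 ± 5.30 to 251 ± 8.73 CPM (adjusted p = 2.12e-07). Pcna, the replication clamp, rose as well (log2 2.05 ± 0.20, adjusted p = 9.36e-06). The same 3 genes were the list's called members between d6 Eff and d6 Ineff, where Hells was at 174 ± 14.4 against 68.6 ± 13.4 CPM (adjusted p = 0.00203). There the Cdca7 call was lost without any 1 of the 4 day 6 libraries (adjusted p from 0.0783 to 0.129), the Pcna call without d6 Eff replicate 1 (adjusted p = 0.0692) or d6 Ineff replicate 1 (adjusted p = 0.0888), and the Hells call without d6 Ineff replicate 1 (adjusted p = 0.0536).

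The 30 genes of DNA replication, a process to which maintenance methylation is tied, were followed as a further list. Of them 27 rose and 1, Ccne2, fell in iPSC against MEF (median log2 2.17), and its adjusted p was 0.146 without MEF replicate 2 and 0.129 without iPSC replicate 2. Between d6 Eff and d6 Ineff 17 rose and none fell (median 0.84), and without both MEF libraries 25 rose and 1 fell (30.0% of all genes). Rrm1, a subunit of ribonucleotide reductase, was lower in d6 Eff (559 and 513 CPM) than in d6 Ineff (707 and 758 CPM). The list's summed level was 1268 and 1316 CPM in MEF, 4233 and 4424 in d3 Ineff, 5200 and 5476 in d3 Eff, 3024 and 3091 in d6 Ineff, 4898 and 4948 in d6 Eff, and 5869 and 5903 in iPSC. Mcm5, a subunit of the replicative helicase, was at 366 ± 28.3 CPM in d6 Eff and 145 ± 1.83 CPM in d6 Ineff (adjusted p = 4.07e-04). The 3 populations with the lowest sums, MEF, d6 Ineff and d3 Ineff, also had the lowest mean Dnmt1, Uhrf1, Dnmt3b and Tet2. The other members had a different order. The 3 lowest means were those of MEF, d3 Ineff and d3 Eff for Dnmt3a and Tet1, and of MEF, d6 Ineff and iPSC for Tdg. Tet3 was highest in d6 Ineff and lowest in iPSC, and Dnmt3l was near or at 0 outside iPSC. The part of cell proliferation in the levels of the members was not tested.

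The partners of de novo methylation rose in 4 of 8 and fell in none in iPSC (median 0.89, and 2 fell without MEF replicate 2), with Mphosph8, Morc3 and Kdm1a at the smallest adjusted p. Kdm1a, a histone demethylase, was at 425 ± 8.84 CPM in iPSC and 126 ± 38.8 CPM in MEF (adjusted p = 3.07e-05). Of the 14 genes of base excision and repair, 7 rose and 1 fell (median 0.81). The de novo and base excision lists were both called at close to the share of all genes, 52.7%. Ung, a uracil glycosylase, rose from 7.56 ± 0.623 to 149 ± 12.8 CPM (adjusted p = 6.07e-08) and was also higher in d6 Eff than d6 Ineff (log2 1.50 ± 0.18, adjusted p = 3.59e-04). Parp1 and Xrcc1 rose with it, and Gadd45g, a stress-induced gene linked to demethylation, fell from 54.7 ± 50.9 to 5.13 ± 1.23 CPM (adjusted p = 4.60e-04). Its relative Gadd45a was at 27.6 and 17.6 CPM in MEF and higher in iPSC, at 63.9 and 67.3 CPM. Gadd45b was at 64.8 and 36.3 CPM in MEF and 59.1 and 60.7 CPM in iPSC. Apex1 was the other gene of the list called between d6 Eff and d6 Ineff (log2 0.71 ± 0.21, adjusted p = 0.0445), a call that held in 6 of 20 alternatives and was lost without each single library other than those of MEF.

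The 12 partners and cofactor enzymes of the TETs went both ways, with 5 higher and 1 lower in iPSC (median 0.54). This was close to the share of all genes called, 52.7%. Sin3a and Ogt were among those that rose. Idh1, which makes the TET cosubstrate 2-oxoglutarate, fell from 227 ± 32.5 to 81.4 ± 5.84 CPM (adjusted p = 5.06e-05). In d6 Eff against d6 Ineff no gene of this list rose, and Cxxc5 (log2 -0.68 ± 0.17, adjusted p = 0.0213) and Idh2 (log2 -0.57 ± 0.15, adjusted p = 0.0294) fell. Both calls were lost without any 1 of the 4 day 6 libraries or either iPSC library (adjusted p from 0.0513 to 0.184).

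The 7 genes listed as methyl-CpG readers include Mbd3, a family member that in mammals does not itself bind methylated CpG. Of the 7, 5 fell in iPSC and none rose (median -1.27, and 6 fell without MEF replicate 2). Mbd3 was not among them, at 129 and 127 CPM in MEF and 165 and 164 CPM in iPSC. Mbd2 fell from 70.2 ± 1.51 to 13.7 ± 0.871 CPM (adjusted p = 1.45e-06), Zbtb4 from 35.9 ± 21.9 to 1.59 ± 0.915 CPM (adjusted p = 1.29e-05), and Zbtb33 by 1.57 on the log2 scale (adjusted p = 0.00117). Zbtb4 was also the list's 1 gene called between d6 Eff (21.8 ± 0.527 CPM) and d6 Ineff (68.5 ± 1.79 CPM, adjusted p = 0.0165), a call lost without either d6 Eff library or d6 Ineff replicate 2 (adjusted p from 0.0601 to 0.0991). From d6 Eff to iPSC 5 genes of the list fell and none rose (median -1.35), beside 29.6% of all genes called.

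Of 8 genes that guard imprints or act as their corepressors, 5 rose and none fell in iPSC (median 1.44, and 1 fell without MEF replicate 2). Trim28, the KRAB corepressor, rose from 402 ± 112 to 2202 ± 74.5 CPM (adjusted p = 7.74e-06), and Zfp57, an imprint-binding zinc finger protein, from 12.8 ± 6.68 to 92.9 ± 3.67 CPM (adjusted p = 2.54e-05). Dppa3, which protects methylation in the early embryo, was at 37.0 ± 1.69 CPM in iPSC and had 0 counts in both MEF libraries. It was at most 0.134 CPM in the 8 sorted libraries, so it passed the filter only through iPSC and its call followed from that. In the methyl donor cycle 4 of 8 rose and none fell, close to the share of all genes called, 52.7%. The median was 0.81, and 2 fell without MEF replicate 2. Mthfd1, Ahcy and Mtr were named by the rule. Mthfd1, an enzyme of folate one-carbon metabolism, was at 594 ± 64.2 CPM in d6 Eff and 197 ± 9.18 CPM in d6 Ineff (adjusted p = 0.00326). Of the remaining 6 tested CXXC and Dnmt paralogs, Kdm2b and Kmt2b rose in iPSC and none fell (median -0.05, and 2 fell without MEF replicate 2), and none was called between the day 6 populations. Without both MEF libraries the counts higher and lower in d6 Eff than d6 Ineff were, beside 30.0% of all genes called, 6 and 1 for maintenance partners, 2 and 0 for de novo partners, 3 and 2 for base excision, 3 and 2 for TET partners, 1 and 1 for readers, 2 and 0 for imprint protectors, 2 and 1 for the methyl donor cycle and 1 and 0 for the paralogs. Between d3 Eff and d3 Ineff no gene of any list was called by edgeR (0.400% of all genes). Without both MEF libraries 4 DNA replication genes were higher in d3 Eff (3.94% of all genes).

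**Figure D4:**
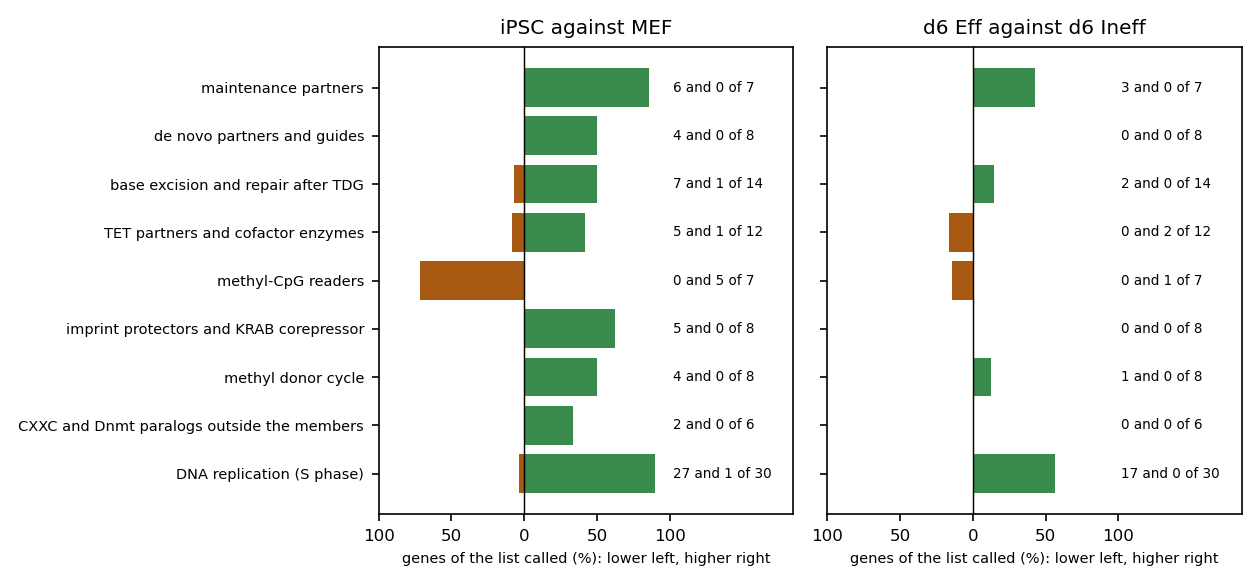
Share of each list's tested genes (y) called lower (left of 0) or higher (right of 0), in percent (x), in iPSC against MEF (left panel) and in d6 Eff against d6 Ineff (right panel), with the counts of higher and lower genes printed beside each bar. The list of methyl-CpG readers is the only one with more genes lower than higher in iPSC (5 of 7), and DNA replication has 27 of 30 higher there and 17 of 30 in d6 Eff. Over all genes tested, 52.7% were called in the left and 14.6% in the right comparison.

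For each member the 3 genes most alike in log2 CPM over the 12 libraries were taken from 10397 protein-coding genes with a mean of at least 5 CPM. The values are descriptions over 6 populations and share the libraries' depths and the unequal MEF pair. They also depend on the measure: by Spearman's rho the genes named for Dnmt3l (rho 0.56 to 0.64), Exo1 for Uhrf1 (0.86) and Zfp362 for Tet3 (0.77) were not among the 200 most alike. Dnmt1 was most like Safb, Cdan1 and Brd8 (r = 0.990 to 0.992). Uhrf1 was most like Hnrnpd, Exo1 and Eefsec (0.986 to 0.989), Dnmt3a like Sox12, Nipal3 and Lmtk2 (0.968 to 0.974), and Dnmt3b like Smarcd1, Kntc1 and Bard1 (0.989 to 0.993). Dnmt3l went with Lrrc2, Dppa4 and Tcl1 (0.985 to 0.988), of which Dppa4 and Tcl1 were at 0 in the means of all other populations. Tet1 went with Abcc4, Birc2 and Ppp1r1a (0.979 to 0.990), Tet2 with Map3k9, Gse1 and Dvl2 (0.959 to 0.988), Tet3 with Traf3, Ptpn14 and Zfp362 (0.985 to 0.989), and Tdg with Ddx51, Recql and Galnt7 (0.930 to 0.958). Ptpn14 had the shape of Tet3 on a higher scale, with mean levels of 324 CPM in d6 Ineff, 191 CPM in d6 Eff and 26.1 CPM in iPSC. Among the members themselves, r was 0.93 for Uhrf1 and Dnmt3b, 0.81 for Tet1 and Tet2, and -0.47 for Tet1 and Tet3.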

How the data were processed

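Poly-A RNA of 12 mouse libraries in 6 groups was sequenced by the study. Per the submitters' processing notes, reads were handled with STAR 2.3.0, Picard 1.100 and HTSeq 0.6.0 on mm9. The sources used here do not name the gene models. The authors deposited raw counts per Ensembl gene, counted without strand per the deposited files' names, which lets overlapping genes on opposite strands share reads. The 5 summary lines of each file were left out of library sizes. Symbols (32860 identifiers), exon lengths and overlaps came from GENCODE M21, and promoter windows from RefSeq on GRCm38.p6. No coordinate of mm9 was used.

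Counts were filtered with filterByExpr (16240 of 37583 genes), scaled by TMM and tested in R 4.3.3 with edgeR 4.0.16 (robust quasi-likelihood fit of all 12 libraries, 6 residual degrees of freedom, Benjamini-Hochberg over all genes tested). The procedure was tested on simulated data. SE was computed as the size of the log2 fold change over the root of its F statistic. Log2 CPM for likeness used a prior count of 2. Alternatives were DESeq2 1.42.0, RLE scaling, total gene counts, a filter of 5 CPM in 2 libraries, no filter, a replicate block, fits of the groups compared alone and leaving out each library. The fit without both MEF libraries was added after seeing the data. The labels state no pairing by replicate number, and same-numbered samples deviated together only weakly, so the main fit has no block. The members and lists were chosen with earlier results of these data known. All 9 members were named, with up to 3 called genes per list and direction at the smallest adjusted p in iPSC against MEF and in d6 Eff against d6 Ineff, and the 3 genes most alike to each member. A gene that this rule names is not reported here. Pecam1, Tek, Laptm5 and the other single markers, Rrm1, Mbd3, Gadd45a and Gadd45b were named after their values were seen. Among partner genes named, Apex1, Kdm2b, Ccne2, Zbtb33, Mphosph8, Gadd45a, Sin3a, Mthfd1 and Cxxc5 share 877, 627, 609, 474, 384, 337, 205, 37 and 11 exon bases with a gene on the opposite strand, and Parp1 with a miRNA, so their counts are less certain. Gene counts of 9284060 to 22763548 per library set the precision, and a member at 0 counts could hold up to 3.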

Additional observations from a re-analysis of the deposited data

Results flagged for a closer look

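For 2 members a change of the Eff and Ineff gap between the days was called only in fits that left out MEF libraries. With 12 libraries neither edgeR nor DESeq2 called it for any member. Without both MEF libraries 8.47% of all genes were called. The Uhrf1 gap grew by 1.02 ± 0.34 (SE) on the log2 scale from day 3 to day 6. It was not called with 12 libraries (edgeR quasi-likelihood, adjusted p = 0.211), and was called without both MEF libraries (log2 1.04, adjusted p = 0.00278) and in the fit of the 8 sorted libraries alone (log2 0.99, adjusted p = 0.00565). The d6 Ineff libraries, at 129.7 and 154 CPM, were below both d3 Ineff libraries, at 238 and 219 CPM, while both d6 Eff libraries were above both d3 Eff libraries. The summed level of the DNA replication genes was 4424 and 4233 CPM in d3 Ineff and lower, at 3091 and 3024 CPM, in d6 Ineff. In the Eff populations that sum was also lower on day 6, where Uhrf1 was higher. It was 5476 and 5200 CPM in d3 Eff and 4948 and 4898 CPM in d6 Eff. The part of DNA replication in the Uhrf1 values was not tested.

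For Dnmt3a the change of the gap was -0.80 ± 0.60 on the log2 scale and was not called with 12 libraries (adjusted p = 0.683). Both d3 Eff libraries were above both d3 Ineff libraries, and both d6 Eff libraries were below both d6 Ineff libraries. Dnmt3a was at 52.4 and 42.0 CPM in d3 Ineff and 120.1 and 113 CPM in d6 Ineff. It was at 58.4 and 64.4 CPM in d3 Eff and 80.5 and 94.1 CPM in d6 Eff. The day 3 difference itself was not called with 12 libraries (adjusted p = 0.954) or in any of 20 alternatives. The change was called without both MEF libraries (log2 -0.78, adjusted p = 0.0303) and in the fit of the 8 sorted libraries alone (log2 -0.83, adjusted p = 0.0318). The 2 days were sorted with different surface proteins, so day and gate cannot be told apart.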

How the results depend on the processing

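Of the 33 member results called, 594 recomputed values kept the call and 40 did not; of the 66 not called, 1151 kept their direction and side, 119 passed the threshold and 22 changed sign. The 41 called values of partner genes kept the call in 745 refits and lost it in 46. The MEF pair, with 1 shallow library, limits most comparisons, and 2 libraries a group limit all. The cause was not tested unless the setting itself tests fewer libraries.

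With only the groups compared, the genes called numbered 2138 (d3 Ineff against MEF), 3247 (d3 Eff against MEF), 2344 (d6 Ineff against MEF), 3968 (d6 Eff against MEF), 700 (day 3 gap), 5002 (day 6 gap), 2574 (Ineff populations over time), 2443 (Eff populations over time), 7657 (iPSC against d6 Eff) and 1237 (change of the gap). Members called there were 3 in d6 Ineff and 3 in d6 Eff against MEF, 1 and 8 in the day 3 and day 6 gaps, 4 and 4 over time, 7 in iPSC against d6 Eff and 2 in the change of the gap. Without both MEF libraries, a setting chosen after seeing the data, the genes called were 625 and 4762 in the gaps, 2646 and 2954 over time and 1343 in the change of the gap, and members 1, 8, 5, 3, 2 and, in iPSC against d6 Eff, 7. DESeq2 called 425 genes in the day 3 gap, 1568 and 2245 over time and 807 in the change of the gap, and 5 members in d3 Eff against MEF, 5 in the day 6 gap and 2 in the Ineff populations over time. With no filter the genes were 459, 1362 and 832 (day 3 gap, Ineff over time, change of the gap), and members 6 in d3 Ineff and 6 in d3 Eff against MEF, 1 and 6 in the gaps and 2 in the Ineff populations over time. Dnmt3l was among the members called in the day 6 gap by DESeq2 and with no filter, on 8 counts of d6 Eff replicate 2. Total counts gave 30 genes in the day 3 gap and 134 in the change of the gap, turned Tet2 in d3 Ineff against MEF to 0.058 and Dnmt1 over time in Eff cells to 0.041 (log2), and moved the median of all genes by 0.20, 0.23, 0.35, 0.33 and 0.27 log2 in d3 Ineff, d3 Eff, d6 Ineff, d6 Eff and iPSC against MEF. The higher and lower genes called went from 2437 and 2439 to 2983 and 1762 in d3 Ineff against MEF. The share of calls that were higher went from 49.2% to 59.8% in d3 Eff, 50.7% to 69.4% in d6 Ineff and 49.0% to 62.3% in d6 Eff against MEF, and from 72.2% to 84.8% over time in Ineff cells, where the median moved by 0.12.

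Same-numbered samples of different groups deviated together only weakly, at r = -0.101 to 0.213. These deviations also carry library differences such as reads outside genes, so whether the samples were paired stays unknown. With the replicate block 5 members were called in d3 Eff against MEF in place of 3, and other counts of members moved by at most 1.

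Leaving out 1 library gave 6401 to 8943 genes and 7 to 8 members in iPSC against MEF, 2946 to 6798 and 2 to 7 in d3 Ineff, 3986 to 7397 and 2 to 7 in d3 Eff, 3112 to 7237 and 4 to 7 in d6 Ineff, and 5005 to 8074 and 4 to 8 in d6 Eff against MEF. The ranges were 4 to 644 and 0 to 2 in the day 3 gap, 930 to 4715 and 1 to 8 in the day 6 gap, 103 to 2607 and 1 to 5 over time in Ineff cells, 657 to 2958 and 1 to 3 in Eff cells, 2834 to 6815 and 3 to 7 in iPSC against d6 Eff, and 20 to 1349 and 0 to 2 in the change of the gap. Values not called that changed sign ranged, on the log2 scale, from -0.78 to 1.20 for Tet2 in d3 Ineff, -0.20 to 0.39 for Tet1 in d3 Eff, -0.081 to 0.71 for Tdg in d6 Ineff and -4.28 to 1.87 for Dnmt3l in d6 Eff against MEF. In the day 3 gap they ranged from -2.99 to 2.21 for Dnmt3l, -0.16 to 0.18 for Tet3 and -0.55 to 0.12 for Tdg. Over time they ranged from -0.455 to 0.086 for Dnmt1 and -0.12 to 0.43 for Dnmt3b in Ineff cells, and from -2.24 to 5.07 for Dnmt3l in Eff cells. In the change of the gap they ranged from -0.18 to 0.36 for Dnmt1, -0.16 to 0.33 for Tet1 and -0.87 to 0.18 for Tet2.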
